A study of Ovis aries with 6 samples.

Results

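In sheep perirenal fat, 351 regions listed as hypo-methylated overlapped places that are low in methylation in lamb tissue. They were chosen as the autosomal regions (chromosomes 1 to 26) of the deposited list of hypo differentially methylated regions (DMRs) that share at least 1 base with a region of the deposited lamb lists of unmethylated regions (UMRs) or low-methylated regions (LMRs). The hypo list holds 496 autosomal DMRs and both DMR lists together hold 1022, so 145 hypo DMRs touched no lamb UMR or LMR and are used below for comparison. The lamb lists hold 21199 UMRs and 103520 LMRs on the autosomes. The 351 DMRs touched 352 of these regions, and 124179 lamb regions touched no DMR of either list.

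Whole-genome bisulfite sequencing measured CpG methylation in this fat depot, which surrounds the kidney, in 3 lambs and 3 fetal animals. All 6 were wild type, pure bred Merino and untreated, each a separate animal with its own library. The lambs were 89 days old (the series design text has 80), with fat labelled as white adipose tissue, and the fetal animals were taken 132 days after conception in a pregnancy of 150 days, with fat labelled as brown adipose tissue. Sample descriptions end in VEH for each lamb and in TV for each fetal animal, so the meaning of these tags and the stage cannot be told apart. The labelled tissue types could not be checked against marker genes, because no gene annotation of the files' build was used here. In bulk tissue a lower level can come from more cells of a type that is unmethylated at a site or from lower methylation within a cell type, and the 2 cannot be told apart.

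Most CpGs of a mammalian genome carry methyl groups, and stretches without them stand out. UMRs are nearly free of methylation, are rich in CpGs and include most CpG island promoters. LMRs are shorter and intermediate in methylation, and often mark distal regulatory elements such as enhancers, where bound factors keep methylation down. Brown fat makes heat for the newborn and white fat stores energy, and the perirenal depot of sheep passes from the first kind to the second in early life. The lists ask where methylation differs between the stages, and the 351 DMRs are those places on the hypo list that lie in or at the border of a lamb low-methylated region.

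A methylation level is the share of reads at CpGs that show methylated cytosine, summed over the CpGs of a region or of a set of regions in each animal. A CpG was used where no animal had fewer than 3 reads, which held for 15163759 of 24936679 autosomal CpGs. Mean coverage of an autosomal CpG was 8.00, 5.22 and 5.59 reads in lambs 1 to 3, and 7.45, 5.38 and 6.60 reads in fetal animals 1 to 3. At this depth 244 of the 351 DMRs had at least 3 usable CpGs, 80 had 1 or 2 and 27 had none. In the 244 the shallowest animal had a median of 31 reads per DMR, with a range of 9 to 389, so the level of a single DMR in a single animal is coarse. Levels over all autosomal CpGs ran from 70.8% to 72.9% in lambs and from 71.1% to 71.3% in fetal animals.

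The DMRs were short, and more of them sat at lamb UMRs than the number of UMRs on the list would give. Their length ran from 6 to 884 bases with a median of 210, and they held 3 to 46 CpGs with a median of 7. A lamb UMR was the region sharing most bases in 200 of 351 (57.0%) and a lamb LMR in 151 (43.0%), whereas UMRs made up 16.8% of the lamb regions without a DMR. UMRs also offer more bases to overlap, with a median length of 1853 bases against 592 for LMRs in the regions without a DMR. Those UMRs together held 1101970 usable CpGs and those LMRs 670830, so by CpGs most of the listed low-methylated sequence is UMR. An excess at UMRs beyond that share of CpGs was not tested. CpG density had a median of 3.65 per 100 bases inside the DMRs, 2.70 in the 1 kb on both sides of them and 2.54 in the 145 other hypo DMRs. Counted once per DMR, the LMRs concerned were denser in CpGs than other lamb LMRs, with medians of 2.73 and 1.51 per 100 bases, while the UMRs concerned were like other lamb UMRs, at 4.02 and 4.03. DMRs need CpGs to be listed at all, and the method behind the lists was not given in the sources used here, so the part of calling in these shares was not tested.

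Place within the lamb region was edge for 193 DMRs (55.0%), core for 146 (41.6%) and whole for 12 (3.42%). Edge means that the DMR crossed 1 border of the region, core that it lay inside, and whole that it covered the region from end to end. Edge DMRs were 106 of the 200 at UMRs and 87 of the 151 at LMRs, and core DMRs were 94 and 52. All 12 whole DMRs were at LMRs, which were short there, with a median of 289.5 bases. Counted once per DMR, the lamb region measured a median of 2038 bases for UMRs and 549 bases for LMRs, and the DMR covered a median of 4.96% of a UMR and 38.6% of an LMR. For core DMRs the nearer border of the lamb region was a median of 216 bases away (range 11 to 5343), under 50 bases in 22 of them and over 300 bases in 55. Borders are fuzzy at this CpG density: with ends within 50 bases counted as equal, edge held 119, core 210 and whole 22.

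The fetal lists had a UMR or LMR under 159 of the DMRs, an LMR for 68 and a UMR for 91, and none under 192. Without a fetal region under the DMR were 123 of 193 edge DMRs, 58 of 146 core DMRs and 11 of 12 whole ones. In 100 of these 192 the lamb region as a whole did overlap a fetal UMR or LMR, so the DMR marked a stretch that the lamb list included and the fetal list did not. The other 92 were at lamb regions with no fetal counterpart. Among lamb regions without a DMR, 20781 of 20903 UMRs and 77140 of 103276 LMRs overlapped a fetal UMR or LMR. The hypo list was made on a lower lamb level, so a comparison with these shares is not independent of it and was not tested. Of the 200 DMRs at a lamb UMR, that UMR overlapped a fetal UMR for 170, a fetal LMR for 25 and neither for 5, and of the 151 DMRs at a lamb LMR, that LMR overlapped a fetal LMR for 61, a fetal UMR for 3 and neither for 87. DNA methylation valleys, which are long stretches without methylation that often surround genes of development, took in few of the DMRs, with 6 in a lamb valley and 3 in a fetal valley.

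Where a lamb region had a single fetal counterpart, its border on the DMR's side lay farther out in the lamb list. This could be measured for 134 edge DMRs, and the lamb border was outside the fetal border in 108, inside it in 4 and at the same base in 22, with a median shift of 98 bases outward. On the opposite side of the same regions the border was farther out in lambs in 41, farther in in 36 and equal in 57, with a median of 0 bases. The 100 DMRs at UMRs among them had a median shift of 106.5 bases (87 outward and none inward), and the 34 at LMRs had a median of 32 bases (21 outward and 4 inward). The lamb lists helped to choose the DMRs and both kinds of list come from the same animals, so these counts describe the lists and were not tested.

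Inside the DMRs the level was lower in lambs by about 22 points. Pooled over 1993 usable CpGs it was 38.2%, 35.2% and 35.9% in lambs 1 to 3, against 59.2%, 57.9% and 58.4% in fetal animals 1 to 3. The 3 lambs lay together and far under the 3 fetal animals, with means of 36.4% ± 1.60 in lambs and 58.5% ± 0.663 in fetal animals (SD, n = 3 each) and a difference of -22.1 points. This is the contrast that the hypo list was made on, so it is a description and carries no test. Among the 244 DMRs with at least 3 usable CpGs, the lamb mean was below the fetal mean in 238. Each lamb was below each fetal animal in 164, a pattern found in 29% of all listed DMRs of both directions with that many usable CpGs. Those include the 244 themselves and the DMRs listed for the opposite direction, so the 29% is not an independent background. Over the 244 the difference had a median of -21.9 points and quartiles of -26.05 and -16.2. It reached 10 points in 221 DMRs, 20 points in 151, 30 points in 37 and 40 points in 2. The spread among animals was of like size in both stages, with a median SD per DMR of 8.42 points among lambs and 8.14 points among fetal animals.

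**Figure D1:**
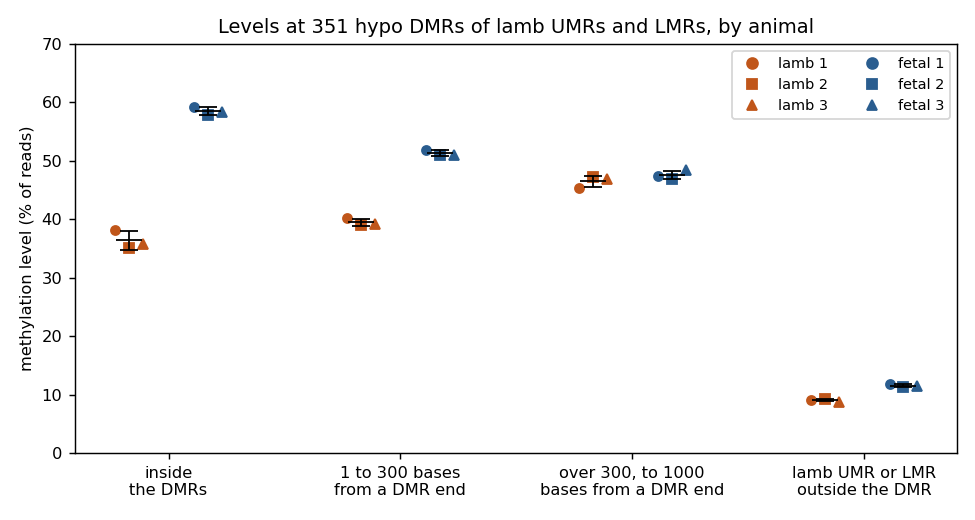
Methylation level in percent of reads (y axis) pooled over the 351 hypo DMRs, their flanks of 1 to 300 bases and of over 300 to 1000 bases, and the rest of the lamb UMRs or LMRs they touch (x axis), 1 point per animal with lambs left of fetal animals, and horizontal lines for the mean and the SD of 3 animals. Inside the DMRs the lambs sit between 35.2% and 38.2% and the fetal animals between 57.9% and 59.2%, and in the far flank the stages overlap.

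Most of the DMRs were at intermediate levels in both stages. The lamb mean was between 30% and 50% in 138 of 244, between 10% and 30% in 58 and under 10% in 10, while the fetal mean was between 50% and 70% in 132, between 30% and 50% in 52 and at 70% or more in 50. Edge DMRs were at 42.0% ± 2.07 in lambs and 64.5% ± 0.510 in fetal animals. Core DMRs were lower in both stages, at 27.7% ± 1.33 in lambs and 49.6% ± 0.768 in fetal animals. Whole DMRs were the highest, at 47.5% ± 2.39 in lambs and 68.9% ± 2.82 in fetal animals (SD, n = 3 each throughout). The 3 places differed in level and little in difference, which was -22.5, -21.9 and -21.3 points for edge, core and whole. DMRs at UMRs and at LMRs were also close in difference, at -22.6 and -21.7 points. The hypo list was made on this difference, so its likeness across places and region types describes the list and was not tested.

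The crossing of the border could be seen within the edge DMRs. Their CpGs on the lamb region's side were at 32.6% ± 2.20 in lambs and 57.3% ± 0.635 in fetal animals, and those beyond the border were at 60.8% ± 2.02 in lambs and 77.5% ± 1.01 in fetal animals (SD, n = 3 each). The difference was -24.7 points within the lamb region and -16.6 points beyond it, so the difference was not limited to the CpGs that the lamb list includes. The lamb list was drawn on the lamb level, and this comparison has no test. Levels were lower in both stages where a fetal region lay beneath the DMR, though DMRs on fetal UMRs were not lower than those on fetal LMRs. DMRs with no fetal region beneath them were at 42.4% in lambs and 64.6% in fetal animals. Those on a fetal LMR were at 28.2% and 48.5%, and those on a fetal UMR at 28.7% and 52.1%. The fetal lists describe the same fetal animals, and this comparison has no test either.

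The edge DMRs with the most reads show both steady and scattered animals. The DMR at chr19:31571370-31572062, across the right border of an LMR, was at 43.5%, 34.7% and 38.1% in lambs 1 to 3 and at 58.7%, 64.8% and 57.1% in fetal animals 1 to 3. At chr14:12129664-12130182, also at an LMR, the lambs were at 41.5%, 32.6% and 30% and the fetal animals at 49.0%, 58.7% and 74.6%. At chr3:3245610-3246130, across the left border of an LMR, the lambs were at 39.5%, 27.9% and 32.7% and the fetal animals at 55.2%, 74.5% and 66.0%. In these 3, none of which had a fetal counterpart, each lamb was under each fetal animal. The DMR at chr8:90459045-90459405, at a UMR that is an LMR in the fetal list, was at 23.6%, 47.3% and 39.5% in the lambs and at 73.6%, 45.6% and 56.4% in the fetal animals. There lamb 2 stood above fetal animal 2, and the stages overlapped, although its shallowest animal had 91 reads.

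Among core DMRs the deepest were all at UMRs. The DMR at chr20:50309245-50309763, which filled most of a UMR with no fetal counterpart, was at 29.4%, 38.6% and 40.2% in lambs and at 59.9%, 53.4% and 55.3% in fetal animals. At chr17:64720562-64721194, 404 bases from the nearer border of its UMR, the lambs were at 33.5%, 31.5% and 43.4% and the fetal animals at 54.3%, 55.7% and 61.0%. At chr2:2191344-2191899, on a stretch that both lists call a UMR, the lambs were at 19.2%, 17.5% and 15.8% and the fetal animals at 48.0%, 46.1% and 58.1%. Each lamb was under each fetal animal in these 3, and the last was among the steadiest in lambs, with an SD of 1.71 points. The DMR at chr14:4977149-4977431 had 1 lamb apart from the others, with 17.9%, 20% and 48.1% in lambs 1 to 3 and 57.7%, 50.9% and 62.5% in fetal animals, and its stages did not overlap either.

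The whole DMRs took in an LMR together with its surroundings. The deepest of all 351, at chr10:86089114-86089586, covered an LMR of 129 bases and was at 50.5%, 57.6% and 59.9% in lambs and at 87.9%, 76.9% and 73.1% in fetal animals. At chr7:97896640-97897330 the lambs were at 51.6%, 30% and 28.8% and the fetal animals at 70.7%, 71.0% and 73.3%. At chr17:5923401-5924065 the lambs were at 49.5%, 35.6% and 44.0% and the fetal animals at 65.4%, 68.1% and 66.2%. In these 3 the stages did not overlap, and in the last 2 the lambs spread more widely than the fetal animals. At chr12:73377421-73378159, with an LMR in both lists, the lambs were at 34.6%, 31.2% and 29.8% and the fetal animals at 58.7%, 54.0% and 54.7%, again without overlap.

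**Figure D2:**
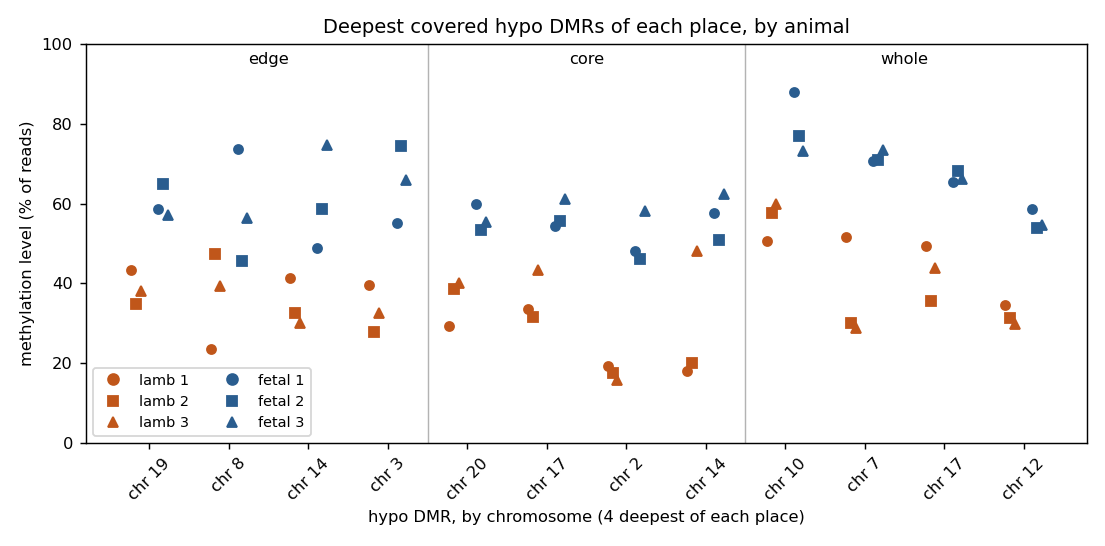
Methylation level in percent of reads (y axis) at the 4 edge, 4 core and 4 whole hypo DMRs with the most reads in their shallowest animal (x axis, named by chromosome), 1 point per animal, lambs left of fetal animals at each DMR. The lambs lie under the fetal animals at 11 of the 12 DMRs, and at the edge DMR on chromosome 8 lamb 2 (47.3%) stands above fetal animal 2 (45.6%).

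The largest differences among DMRs with at least 5 usable CpGs included a UMR that was nearly unmethylated in lambs. At chr15:37823638-37823933, in the core of a UMR of both lists, the level was 2.1%, 0.0% and 0.0% in lambs and 38.2%, 38.7% and 40.8% in fetal animals, a difference of -38.5 points. The difference was -41.4 points at the edge DMR chr19:50041365-50041424 (38.1% ± 4.44 in lambs and 79.5% ± 17.5 in fetal animals) and -40.6 points at the core DMR chr3:212313520-212313739 (21.2% ± 4.93 in lambs and 61.8% ± 4.31 in fetal animals; SD, n = 3 each). The remaining 2 by this rule were chr25:34119304-34119820 at -39.8 points and chr3:220550816-220551098 at -38.6 points. In these 5 no lamb reached the level of any fetal animal. With at least 5 reads per CpG the differences at chr25:34119304-34119820 and chr3:220550816-220551098 were smaller, at -26.5 and -22.2 points. The 5 were picked for their size and show the upper end of the range.

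Against the name of the list, 6 of the 244 DMRs had a higher mean in lambs. The differences were 0.895 to 4.34 points, and in each of the 6 the stages overlapped; they were chosen after their values were seen. The widest spread was at the edge DMR chr13:74890874-74891059, with 44.4%, 25.0% and 47.1% in lambs and 19.2%, 23.5% and 66.7% in fetal animals from 3 CpGs. The best covered was the whole DMR chr7:72813756-72814364, with 63.4%, 63.5% and 43.7% in lambs and 60.9%, 52.6% and 48.8% in fetal animals from 9 CpGs and at least 63 reads per animal. Usable CpGs were a part of those in the DMR there (9 of 16), and whether the others differ was not tested.

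A pair of DMRs shared a lamb region in 2 cases. The UMR at chr24:9989944-9991349 held chr24:9991196-9991297, with 33.3%, 59.3% and 10.5% in lambs and 75%, 75% and 67.2% in fetal animals, and chr24:9990757-9990888, with 30.8%, 30.4% and 48.1% in lambs and 28.6%, 38.1% and 40% in fetal animals. The first separated the stages with a wide spread among lambs, and the second did not. The LMR at chr3:200290384-200292214 held chr3:200290904-200291340, at 7.70% ± 2.36 in lambs and 6.17% ± 5.74 in fetal animals (SD, n = 3 each), and chr3:200290084-200290524, which had 1 usable CpG. The stages overlapped in both.

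The rule takes in DMRs that touch a lamb region by very little. At the border of the rule, 3 DMRs shared 2 bases with a lamb region and 1 shared 4 bases. Of these, chr19:15210397-15210485 was at 62.8% ± 4.48 in lambs and 85.6% ± 4.96 in fetal animals, and chr25:44073643-44073716 at 55.5% ± 12.6 in lambs and 80.2% ± 17.7 in fetal animals (SD, n = 3 each), while the other 2 had no usable CpG. Just outside it, hypo DMRs began 13, 18, 20 and 22 bases from a lamb region. Levels there were 46.5% in lambs and 70.1% in fetal animals at chr3:213192431-213192450, 77.1% and 86.2% at chr1:141318645-141319018, and 61.7% and 63.6% at chr20:10673247-10673479, with no usable CpG in the other.

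The lower level in lambs went on beyond the DMR ends and faded within 1000 bases. At 1 to 300 bases from a DMR end and outside any DMR, the level was 40.2%, 39.1% and 39.3% in lambs 1 to 3, against 52.0%, 51.1% and 51.0% in fetal animals 1 to 3. Each lamb was well under each fetal animal, with a difference of -11.8 points between 39.5% ± 0.621 in lambs and 51.3% ± 0.547 in fetal animals (SD, n = 3 each; exact permutation test, two-sided, p = 0.1). That p is the smallest that 3 animals against 3 allow, so no such comparison here could pass 0.05. Sheared fragments were 150 to 300 bases long, so reads in this near flank can also cover the DMR, and the near flank is not independent of it.

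Pooled from 300 to 1000 bases the stages overlapped. The level was 45.4%, 47.2% and 46.9% in lambs and 47.4%, 47.0% and 48.4% in fetal animals over 8570 CpGs, so lamb 2 stood above fetal animal 2. The difference was -1.08 points (46.5% ± 0.956 in lambs and 47.6% ± 0.724 in fetal animals; SD, n = 3 each; exact permutation test, two-sided, p = 0.2). The 145 hypo DMRs away from lamb regions had 46.2% ± 0.608 in lambs and 47.2% ± 0.730 in fetal animals in the same flank (SD, n = 3 each), and the difference of the 351 less that of the 145 was -0.0513 points, with a sign that turned with the CpGs or animals used (exact permutation test, two-sided, p = 1). Flanks of lamb regions without a DMR were taken from the ends of the region, whereas DMR flanks start at the DMR and can lie within the region. The flanks of regions without a DMR were at 78.9% ± 0.887 in lambs and 78.3% ± 0.0996 in fetal animals. The difference of the DMR flanks less theirs was -1.70 points (exact permutation test, two-sided, p = 0.1). That gap was -0.964 points with the flanks split at 500 bases (exact permutation test, two-sided, p = 0.2) and -0.400 points outside all UMRs and LMRs of both stages (p = 0.1 by the same exact test). Many CpGs in the far flank lie in the UMR or LMR itself, and over the 4352 CpGs outside all UMRs and LMRs of both stages the level was 81.2% ± 0.619 in lambs and 81.1% ± 0.128 in fetal animals (exact permutation test, two-sided, p = 1), a restriction chosen after seeing the data.

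By steps of 100 bases from the DMR ends the difference shrank at each step up to 700 bases. It was -17.3, -11.9 and -7.83 points in the first 3 steps, -3.70 and -2.22 in the next 2, and -0.995 and -0.275 in the 2 after those. Each lamb was under each fetal animal in each of the first 6 steps and in none of the 4 after them. For edge DMRs the 2 sides differ in level: outward from the lamb region the first 100 bases were at 60.8% ± 0.396 in lambs and 74.3% ± 2.99 in fetal animals, and inward at 28.1% ± 1.39 in lambs and 46.1% ± 2.53 in fetal animals (SD, n = 3 each). The stages were separate on both sides up to 400 bases, around core DMRs up to 500 bases and around whole DMRs up to 200 bases. Beyond 400 bases the outward side of edge DMRs reached 68.4% to 74.4% in lambs and 67.2% to 75.7% in fetal animals, and at 701 to 800 bases each lamb was above each fetal animal (73.7% ± 1.89 in lambs and 71.4% ± 0.301 in fetal animals), the 1 step of this kind among the 50 computed.

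**Figure D3:**
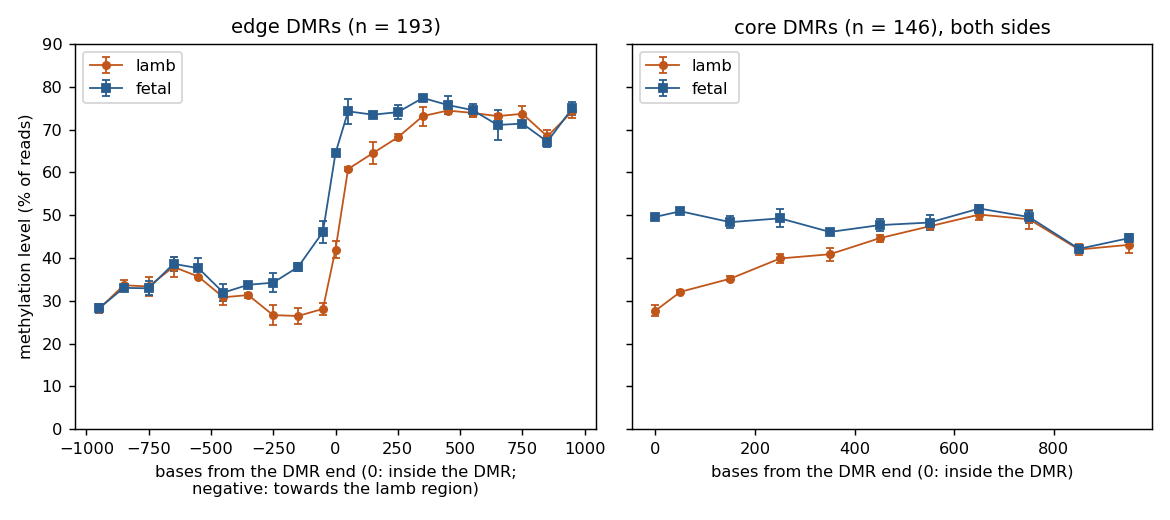
Methylation level in percent of reads (y axis) by steps of 100 bases from the DMR end (x axis, in bases, with 0 for the DMR itself), for 193 edge DMRs (left panel, negative towards the lamb region) and 146 core DMRs (right panel, both sides together), with points for the mean and bars for the SD of 3 lambs and 3 fetal animals. The lamb line lies under the fetal line near the DMR, by 13.5 points in the first 100 bases outward and 18.0 points in the first 100 bases inward of edge DMRs, and the lines meet farther away.

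Single far flanks gave few differences, in both directions. Each was tested by a quasi-binomial logistic model with dispersion moderated over features as in limma's squeezeVar, fitted to the far flanks of all DMRs and of all lamb regions without a DMR (115098 flanks with at least 3 usable CpGs), with Benjamini-Hochberg adjustment over all of them. None of 336 DMR flanks was called at an adjusted p under 0.05 with a difference of at least 10 points, beside 0.00174% of all flanks, and limma on log ratios and edgeR also called none. Unadjusted p in the quasi-binomial test was under 0.05 in 49 of the 336 (31 lower and 18 higher in lambs), beside 6.97% of all flanks. The 31 lower ones are 9.23%, beside 2.8% of all flanks. By limma, unadjusted p was under 0.05 in 24 of the 336, beside 6912 of all 115098 flanks. By edgeR it was under 0.05 in 37 of the 336, beside 7265 of all 115098. Each lamb was lower than each fetal animal in 30 of 336 (8.93%), against 4.68% of all flanks, and higher in 20 (5.95%), against 6.88%. The DMR flanks held a median of 188 reads per animal, against 97.5 in all flanks, and the part of depth in these counts was not tested. Flanks of lamb regions without a DMR start at the ends of the region, whereas DMR flanks can lie within the UMR or LMR. The part of that unlike place in these counts was not tested either.

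Of the 5 far flanks with the smallest p, 3 were higher in lambs although the DMR between them was lower. Around the core DMR chr9:16404614-16404897 the flanks were at 89.2%, 95.6% and 93.2% in lambs and at 77.4%, 84.5% and 80.4% in fetal animals, a difference of 11.9 points, while the DMR itself was at 38.6% ± 6.20 in lambs and 61.1% ± 5.22 in fetal animals. Around the edge DMR chr11:13038849-13039197 they were at 73.1%, 70.2% and 66.5% in lambs and at 56.5%, 59.5% and 50% in fetal animals, while the DMR was at 49.2% ± 13.0 in lambs and 75.6% ± 9.54 in fetal animals (SD, n = 3 each). In both the stages were separate inside the flank, in the opposite direction to the DMR mean. Around the edge DMR chr11:44144304-44144450 the flanks were also higher in lambs, at 35.5% ± 2.58, against 23.7% ± 2.78 in fetal animals, and the DMR had 2 usable CpGs. The other two were lower in lambs, by 9.50 points around chr20:47017219-47017311 and by 10.6 points around chr3:154869209-154869802. Adjusted p in the quasi-binomial test was 0.142 to 0.351 for these 5, so none passed.

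The rest of the lamb UMR or LMR, outside any DMR, was lower in lambs as well. Over 11906 CpGs it was at 9.15%, 9.25% and 8.87% in lambs 1 to 3, against 11.9%, 11.3% and 11.5% in fetal animals 1 to 3. The stages were separate, with a difference of -2.50 points between 9.09% ± 0.199 in lambs and 11.6% ± 0.278 in fetal animals (SD, n = 3 each; exact permutation test, two-sided, p = 0.1). Lamb regions are listed for a low lamb level, so lamb regions without a DMR, listed on the same terms, were set beside them, and these were at 17.6% ± 0.319 in lambs and 18.0% ± 0.254 in fetal animals. The difference around the DMRs less that of the lamb regions without a DMR was -2.09 points (exact permutation test, two-sided, p = 0.1). The regions without a DMR were not chosen by a hypo DMR, and rest CpGs within 300 bases of a DMR can share its fragments. The gap is thus not independent of the hypo list.

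UMRs and LMRs contributed unequally to this, in a division made after seeing the data. In UMRs the rest was at 7.66%, 8.02% and 7.57% in lambs and at 9.79%, 9.38% and 9.43% in fetal animals, a difference of -1.78 points, against -0.0211 points in UMRs without a DMR. In LMRs the rest was at 33.5%, 29.6% and 29.95% in lambs and at 47.7%, 46.4% and 44.6% in fetal animals, a difference of -15.2 points, against -1.33 points in LMRs without a DMR (30.5% ± 0.496 in lambs and 31.8% ± 0.793 in fetal animals). In lambs, then, the rest of these LMRs was close to the level of other lamb LMRs, and in fetal animals it stood above that of the others. LMRs with a fetal counterpart differed by -12.7 points around a DMR and by 0.0912 points without one, and LMRs with no fetal counterpart by -19.9 and -9.82 points. The exact permutation test, two-sided, of the gap between regions with and without a DMR gave p = 0.1 for UMRs and for LMRs. The pooled rest of the UMRs was at or under 9.79% in each animal, so UMRs and LMRs are compared at unlike levels. The part of level in this contrast was not tested.

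The UMR difference was mostly near the DMR, and the LMR difference was seen at both distances, again in a division made after seeing the data. Within 300 bases of a DMR the rest of the UMRs was at 17.1% ± 0.753 in lambs and 28.8% ± 0.413 in fetal animals, a difference of -11.6 points (SD, n = 3 each). Farther than 300 bases from every DMR it was at 6.46%, 6.97% and 6.36% in lambs and at 7.35%, 7.07% and 6.96% in fetal animals, a difference of -0.535 points with overlapping stages (exact permutation test, two-sided, p = 0.2). In the LMRs the difference was -18.1 points within 300 bases and -8.30 points beyond, where 196 CpGs gave 31.5%, 29.0% and 31.4% in lambs and 41.1%, 40.5% and 35.3% in fetal animals (exact permutation test, two-sided, p = 0.1). The stages stayed separate there, though fetal animal 3 was nearer the lambs than the other fetal animals were. Pooled UMR CpGs at that distance were at or under 7.35% in each animal, and the part of level in this contrast was not tested.

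**Figure D4:**
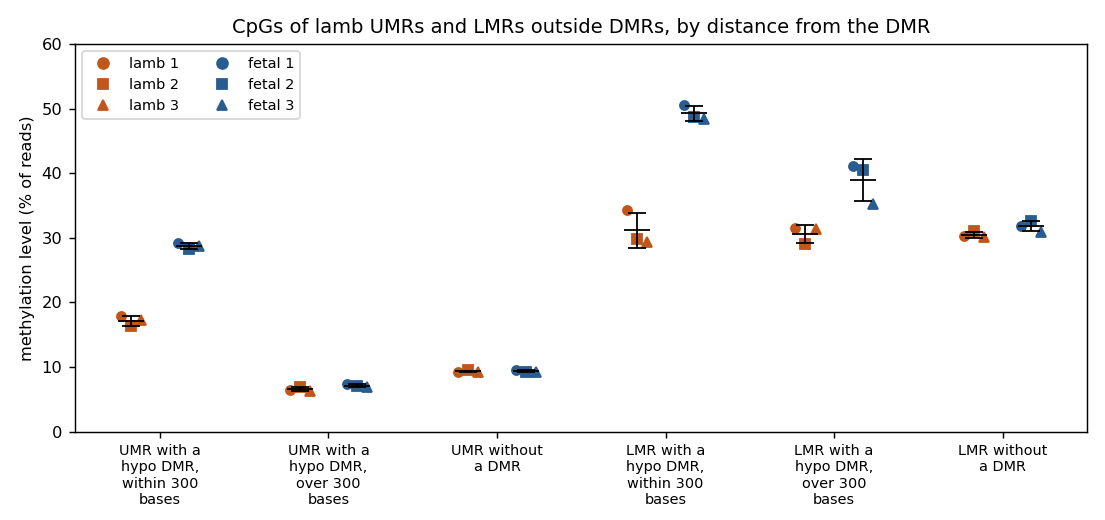
Methylation level in percent of reads (y axis) of CpGs outside DMRs in lamb UMRs and LMRs (x axis) that touch a hypo DMR, within and over 300 bases of it, and in those without a DMR, 1 point per animal, lambs left of fetal animals, with lines for the mean and the SD of 3 animals. UMR CpGs over 300 bases from a DMR are at 6.36% to 6.97% in lambs and 6.96% to 7.35% in fetal animals, while LMR CpGs at that distance are at 29.0% to 31.5% in lambs and 35.3% to 41.1% in fetal animals.

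Tested region by region, the rests of the lamb regions were lower in lambs more often than lamb regions in general, and none passed the adjusted threshold. The same quasi-binomial test ran over 109715 lamb regions with their DMR CpGs removed, 276 of them touched by the hypo DMRs. None of the 276 was called, beside 0% of all, and limma and edgeR also called none; the smallest adjusted p in the quasi-binomial test was 0.166. Unadjusted p in the quasi-binomial test was under 0.05 in 95 of the 276 (91 lower and 4 higher in lambs), beside 9.38% of all regions. The 91 lower ones are 33.0%, beside 5.93% of all regions. By limma, unadjusted p was under 0.05 in 64 of the 276, beside 9056 of all 109715 regions. By edgeR it was under 0.05 in 85 of the 276, beside 9187 of all 109715. Each lamb was lower than each fetal animal in 88 (31.9%), against 8.49% of all regions, and higher in 3 (1.09%), against 5.34%. By type the counts of separate and lower rests were 47 of 197 for UMRs, against 6.26% of all lamb UMRs, and 41 of 79 for LMRs, against 9.02% of all lamb LMRs. Rests lower in lambs at an unadjusted p under 0.05 were 50 of 197 for UMRs, against 5.51% of all lamb UMRs, and 41 of 79 for LMRs, against 6.04% of all lamb LMRs. The rests held a median of 241 reads per animal, against 56.8 in all lamb regions, and the part of depth in these counts was not tested. The 276 regions were chosen by a hypo DMR, and lamb regions in general were not. Of the LMR rest CpGs, 473 lay within 300 bases of a DMR, where reads can also cover it, and 196 lay farther away. The higher shares are thus not independent of the hypo list.

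The 5 rests with the smallest p were all lower in each lamb. The LMR at chr24:40478678-40478948, with an edge DMR, was at 47.4%, 35.0% and 26.3% in lambs outside the DMR and at 84.0%, 68.8% and 74.03% in fetal animals, a difference of -39.4 points. The UMR at chr26:37115268-37116668, with a core DMR of 210 bases and an LMR in the fetal list, was at 20.1%, 14.2% and 17.9% in lambs and at 56.4%, 29.4% and 44.7% in fetal animals, a difference of -26.1 points over 33 CpGs. The LMR at chr1:271586127-271586858, with a core DMR, was at 33.1%, 44.3% and 26.1% in lambs and at 56.4%, 68.3% and 63.6% in fetal animals. In these 3 the rest differed by more than the DMR itself, which was lower in lambs by 19.5, 21.5 and 12.7 points. The LMR at chr10:74880786-74880974 differed by -46.4 points on 3 CpGs, also more than its DMR, which differed by -24.7 points. The UMR at chr9:31966130-31970431, a UMR of both lists and 4302 bases long, was at 4.30%, 5.67% and 3.33% in lambs and at 8.34%, 10.4% and 11.1% in fetal animals over 87 CpGs, a small difference of -5.51 points on many reads. The DMR in that UMR differed by -25.5 points, more than the rest did. The 5 regions were picked for a small p in the rest, which favours large differences there. Adjusted p in the quasi-binomial test was 0.166 to 0.193 for these 5.

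Hyper DMRs at fetal low-methylated regions, 400 in number, gave differences of like size and opposite sign inside and in the near flank. Their level was higher in lambs by 21.7 points inside (56.1% ± 1.57 in lambs and 34.4% ± 0.688 in fetal animals), by 12.2 points in the near flank and by 1.43 points in the far flank, beside -22.1, -11.8 and -1.08 points for the 351 hypo DMRs (SD, n = 3 each). In the far flank the stages were separate for the hyper DMRs and overlapped for the hypo DMRs. Far-flank CpGs outside all UMRs and LMRs differed by 1.08 points for the hyper DMRs and by 0.0255 points for the hypo DMRs. The sets come from the same animals and the difference of their extents was not tested. A hyper DMR lay within 1000 bases of 1 of the 351 and another hypo DMR within 1000 bases of 7.

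The DMRs were found on each autosome, in unequal number. Chromosome 3 held 42, the highest count, and chromosome 26 held 1. Per 1000 lamb UMRs and LMRs the number was highest on chromosome 20, with 26 DMRs or 6.95 per 1000, and lowest on chromosome 26, with 0.423 per 1000. Within 5 Mb of the last CpG of a chromosome lay 71 of the 351 (20.2%), against 11.2% of lamb UMRs and LMRs and 12.5% of lamb UMRs. The hyper DMRs at fetal regions had a like share there (20.5%), and the other hypo DMRs had 16.6%. Neighbouring DMRs are not independent, and these shares were not tested.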

How the data were processed

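Per the labels' protocols, DNA was sheared to fragments of 150 to 300 bases, treated with bisulfite and sequenced as paired reads of 100 bases, 1 lane per animal. The series design text gives Oar_v3.1 as the build for mapping, and positions here are 1-based on it. BWA and Picard are named in the submitters' processing notes, with Oar_v3.1 and hg19 as builds, and no roles. The methylation caller, its filters and the method behind the DMR, UMR, LMR and valley lists were not given in the sources used here. In units of reads, the authors' deposited table gives, per CpG and animal, unnormalized counts of methylated reads and of all reads, and has 0 other sample columns. Their lists hold positions alone.

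The DMRs, lists, tests and alternatives were chosen with earlier results of these data known. That holds for the minimum of 3 reads, taken because a minimum of 5 leaves too few DMRs with usable CpGs; both 5 and 1 were tried. Divisions by region type, fetal counterpart, distance and chromosome end, and flanks outside all UMRs and LMRs, were added after seeing the data. Named are the 4 deepest DMRs per place, the 5 largest differences with at least 5 usable CpGs, the 5 smallest p per test and DMRs sharing a lamb region. A DMR takes its place from the lamb region sharing most bases. Far flanks leave out CpGs within 300 bases of any DMR. The quasi-binomial dispersion was not allowed below 1; priors of 1.67 (11.3 degrees of freedom) for rests and 1.55 (21.5) for far flanks equalled those of limma's squeezeVar. The test was tried on simulated data. Exact p-values compare 3 animals per stage over all assignments of the animals to the stages. Quasi-binomial p-values use the spread among those animals, moderated by priors fitted over all features. Reads carry no molecule marks, so counting precision covers counting error alone. Tools were Python 3.11.15, numpy 2.4.6, scipy 1.17.1, pandas 2.3.3, R 4.3.3, limma 3.58.1 and edgeR 4.0.16. Other alternatives were leaving out each animal or CpGs with summed coverage over 123 reads, equal weight per CpG, membership at 50% of bases, flanks split at 500 bases, the replicate number as a block, at least 5 CpGs, no minimum of difference, limma on log2 ratios (pseudocount of 1) and edgeR.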

Additional observations from a re-analysis of the deposited data

How the results depend on the processing

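The differences inside the DMRs, in the near flank and in the rest of the lamb regions kept their sign under every alternative run for them, as did the gap between rests with and without a DMR. The ranges were -23.0 to -20.9 points inside, -12.8 to -7.80 in the near flank and, with UMRs and LMRs together, -3.13 to -2.35 in the rest. The far flank held no steady sign against the other hypo DMRs: the gap was 0.0209 with at least 5 reads per CpG, 0.0656 with at least 1, 0.344 with equal weight per CpG, 1.28 outside all UMRs and LMRs, and -0.515 to 0.757 when 1 animal was left out, with a positive sign without lamb 1 (0.200), lamb 3 (0.0813) or fetal animal 3 (0.757). The far flank itself gave 0.0255 points outside all UMRs and LMRs, -0.374 when split at 500 bases, -0.426 with equal weight, and -1.44 to -0.541 when 1 animal was left out. Against lamb regions without a DMR its gap was -0.964 points with the split at 500 bases and -0.400 outside all UMRs and LMRs; the cause was not tested. Counts by place moved to 119 edge and 22 whole with ends within 50 bases counted as equal, and DMRs on a fetal region from 159 to 80 when 50% of their bases had to lie in it. Correlations between same-numbered animals were small, which cannot settle whether the replicate numbers pair animals. They were 9.71e-05, 0.00763 and -0.000658 over rests, and 0.00887, 0.0133 and -0.00412 over far flanks. Animals with different numbers gave -0.00672 to 0.00676 over rests and -0.0140 to 0.00582 over far flanks. With the replicate number as a block, 1 of the 276 rests was called, beside 3 of all 109715 rests. It was chr26:37115268-37116668 (adjusted p 0.00971 in the quasi-binomial test, against 0.166 without the block). None of the 336 far flanks of the DMRs was called with the block, beside 5 of all 115098 flanks. The smallest exact p is then 0.25. Calls among the rests and far flanks of the DMRs stayed at 0 in each other setting. The smallest adjusted p there was 0.0501 in the quasi-binomial test, over rests without fetal animal 2. Over all features, calls in those other settings reached 2 for rests (without fetal animal 3) and 24 for far flanks (without lamb 3). Inside single DMRs, chr3:200290084-200290524 ran from -13.6 to 3.095 points when 1 animal was left out, turning without lamb 3 (3.095) or fetal animal 3 (1.87), and gave 4.68 with at least 1 read. On the same terms chr3:200290904-200291340 ran from -1.55 (without fetal animal 3) to 4.13, and chr24:9990757-9990888 from -4.95 (without lamb 3) to 3.90, with -2.60 without fetal animal 1 and -3.04 with at least 5 reads. Of the other values inside named DMRs, 172 moved by less than the spread among animals and 6 by more, with their sign kept. Depth is the main limit: 27 of 351 DMRs had no usable CpG and 80 had 1 or 2, and these enter the pooled levels at most.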
